A study of Mus musculus with 14 samples.

Results

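Microglia sorted from the cortex of sham-operated TLR4-/- mice were set against those of sham-operated wild-type mice, a comparison of the 2 genotypes without an ischaemic injury. It used 7 of the 14 arrays of the series, the 3 labelled TLR4-/- sham and the 4 labelled wild-type sham, chosen by their labels alone. Each array gave a log2 signal for 19938 genes. The mice were males of strain C57BL/6J, 12 to 14 weeks old, sham surgery was done under isoflurane, and RNA came from microglia of the ipsilateral cortex sorted ex vivo. The other 7 arrays, 4 wild-type and 3 TLR4-/-, came from mice of the same age, sex and strain label whose middle cerebral artery was blocked for 15 min and reperfused for 72 h (I/R). In the reported fit they do not enter the sham differences, and they serve to see whether a genotype difference was also present in separate arrays. They do share the limma estimate of the spread, so they enter the SE and p-values of the sham comparison. The sources used here do not give the origin of the allele, its backcross or whether wild-type and TLR4-/- mice were littermates. They do not state that each array is a separate animal, so p-values measure the spread between these arrays, which may be technical.

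TLR4 is the receptor through which macrophages and microglia sense bacterial lipopolysaccharide and some molecules released by damaged cells. It signals through MyD88 to NF-kB and inflammatory cytokines, and through TRIF to IRF3 and type I interferon, which in turn induces a large set of antiviral genes through an interferon-stimulated response element in their promoters. Unstimulated microglia also carry a low basal level of these interferon-stimulated genes.

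The labelled cell type was borne out by its markers. The mean signal over 8 microglia markers lay between 11.3 and 11.4 on the log2 scale in all 7 sham arrays, against a median of 2.95 over 1027 olfactory receptor genes, which stand in here for genes that are not expressed. The 95th percentile of those genes, 4.67, is used below as the background level. By their mean over all 14 arrays 12533 genes (62.9%) lay above it. Of the markers of other cells, by their mean over all 14 arrays, 11 of 13 neutrophil, 9 of 12 neuron, 7 of 11 T and NK cell and 6 of 11 astrocyte genes lay within background. Most genes of the other lists lay above it. Within background were 4 of 9 endothelial and pericyte, 3 of 10 oligodendrocyte, 2 of 11 monocyte and 2 of 6 B cell genes. The same held for 2 of 6 choroid plexus and ependymal, 0 of 10 border-associated macrophage and 0 of 2 erythroid genes. Arrays of 1 group correlated at 0.981 or above, but wild-type array C was closer to the TLR4-/- arrays (Pearson r across genes 0.987 to 0.992) than to its own group (0.981 to 0.986). For wild-type arrays A, B and D the 2 ranges overlapped, so these arrays did not separate clearly by genotype either. Array D was at 0.988 to 0.991 with the TLR4-/- arrays and 0.986 to 0.989 with its own group. Genes described below whose call turns on wild-type array C are given with and without it. Ndufa1 and Smim20, whose calls turn on it too, are only named in the closing section.

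The targeted gene itself was lower in TLR4-/- microglia but not lost from the array. The log2 signal of Tlr4 was 8.92, 8.86, 8.75 and 8.57 in wild-type arrays A to D and 8.47, 8.15 and 8.33 in TLR4-/- arrays A, B and D. All TLR4-/- values lay below all wild-type values, and every one stayed far above background. The difference was -0.46 (SE 0.16, limma adjusted p = 0.920), and the exact two-sided permutation test over the 35 possible splits of the arrays gave p = 0.0571, the smallest it can give. Where the probes lie relative to the deleted part of the gene is not known, so this signal does not check the genotype labels.

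One gene of 19938, Mid1, passed an adjusted p of 0.05 (limma, Benjamini-Hochberg over all genes), which is 0.00502% of the genes tested. Mid1 encodes a microtubule-associated ubiquitin ligase, and in laboratory mice of this strain its gene runs across the boundary of the pseudoautosomal region. Its log2 signal was 7.01, 7.17, 7.01 and 7.13 in wild-type sham arrays A to D and 5.98, 6.42 and 5.87 in TLR4-/- sham arrays A, B and D. The 2 genotypes were apart by more than the spread within either, and Mid1 fell by 0.99 (SE 0.13, limma adjusted p = 0.0113), a 1.99-fold lower signal. In the I/R arrays Mid1 was lower again, at 6.27 ± 0.03 (SD, n = 3) against 7.18 ± 0.11 (SD, n = 4), a difference of -0.91 (limma adjusted p = 0.0179). Those arrays do not enter the sham difference, but both p-values rest on 1 shared estimate of the spread. The call after sham was lost when wild-type array B (adjusted p = 0.0711), TLR4-/- array A (0.118) or TLR4-/- array D (0.0543) was left out of the limma fit, and when only the 7 sham arrays entered it (0.196). The difference stayed between -1.15 and -0.88 in every setting tried.

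The gene with the second smallest p, the long non-coding RNA G530011O06Rik, lies at the same end of its chromosome as Mid1 in the RefSeq annotation: among the 739 genes tested on the X chromosome Mid1 was number 737 in gene order and G530011O06Rik was number 739. Its annotated span lies within that of Mid1, and which probes make up each value is not known here. Its log2 signal was 9.72, 10.21, 9.18 and 9.67 in the wild-type sham arrays and 8.57, 8.63 and 8.40 in the TLR4-/- sham arrays. The groups did not overlap, with array C the lowest of the wild-type values. The difference was -1.16 (SE 0.18, limma adjusted p = 0.0773) after sham and -0.85 after I/R, where the groups did not overlap either. It passed the threshold without wild-type array C (limma adjusted p = 0.00281), and also with a replicate block (0.0297), array weights (0.0196) or trend and robust variance (0.0387).

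**Figure D1:**
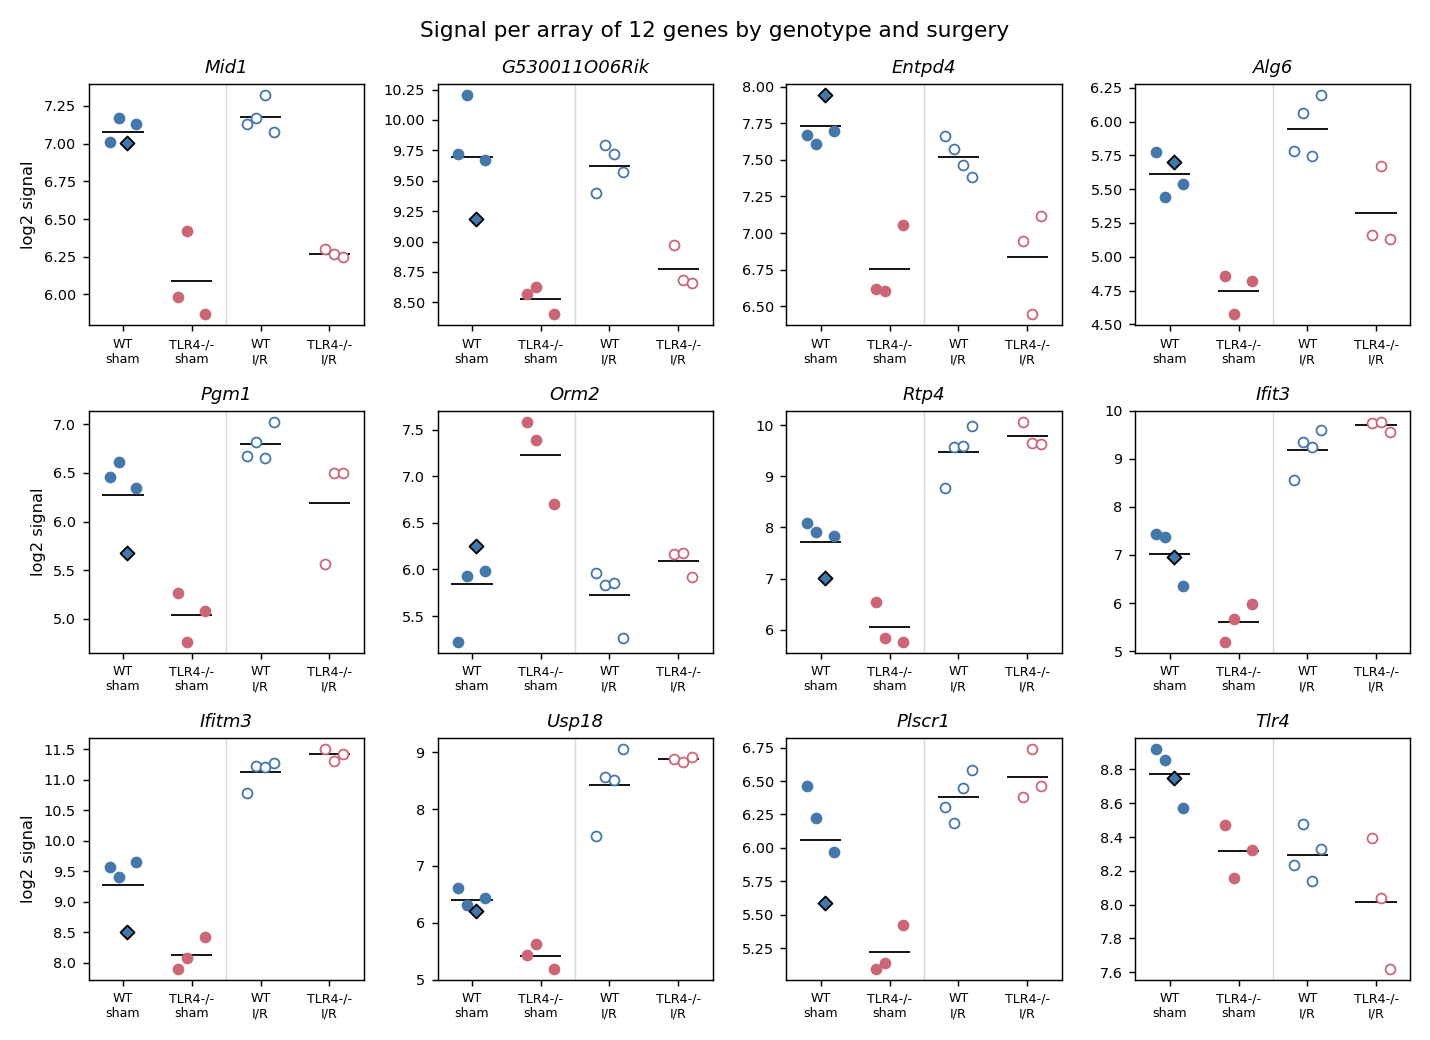
Log2 signal (y axis, a separate range for each gene) of 12 genes in each of the 14 arrays, by genotype and surgery (x axis); points are arrays, filled for sham and open for I/R, the black-edged diamond is wild-type sham array C and horizontal lines are group means. Mid1, G530011O06Rik, Entpd4, Alg6 and Pgm1 sit lower in TLR4-/- arrays in both surgery arms, while Rtp4, Ifit3, Ifitm3, Usp18 and Plscr1 sit lower after sham and not after I/R.

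No other gene passed. At an unadjusted p under 0.05, 473 genes (2.37%) were lower and 572 (2.87%) higher in TLR4-/- sham arrays, and 369 (1.85%) had all 3 TLR4-/- values below all 4 wild-type values while 728 (3.65%) had them above. With each array centred on its median that split turned, to 543 lower and 423 higher. Among genes 2-fold or more apart without overlap, 7 were lower and 2 higher. The median difference of all genes was 0.013. The 15 genes with the smallest p in each direction are described next, as a ranking and not as calls.

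Of those 15 lower genes, 6 were lower again after I/R at an unadjusted p under 0.05 and 5 did not overlap there (Mid1, G530011O06Rik, Entpd4, Alg6 and Pgm1). Of all genes 645 (3.24%) were lower after I/R by the same p and 639 (3.2%) were lower without overlap. One of the 15, Tada2a, was higher after I/R by that p. Of the 15 higher genes 10 had a positive difference after I/R, 0 were higher by that p and 3 were lower, while 1044 of all genes (5.24%) were higher, so the count of 0 is near the share of all genes. Entpd4, a nucleotide-hydrolysing enzyme of the Golgi and lysosomes, gave 7.67, 7.61, 7.95 and 7.70 in wild-type and 6.62, 6.60 and 7.05 in TLR4-/- sham arrays. Its difference of -0.97 (SE 0.16, limma adjusted p = 0.0883) was -0.68 after I/R. RefSeq lists a second gene of the same name family on chromosome 14, Entpd4b, so the source of this signal among the copies is uncertain. Alg6, a glucosyltransferase of N-glycan assembly, was at 5.44 to 5.78 in wild type and 4.57 to 4.85 in TLR4-/-. It differed by -0.87 (limma adjusted p = 0.116) after sham and by -0.62 after I/R. Pgm1, the phosphoglucomutase that links glycogen to glycolysis, was at 6.46, 6.62, 5.68 and 6.34 in wild type and 5.27, 4.77 and 5.08 in TLR4-/-. Array C gave the lowest wild-type value, and the difference of -1.23 (limma adjusted p = 0.170) became -1.43 (0.0177) without that array.

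Among genes above background without overlap, the gene furthest above wild type in TLR4-/- sham microglia was Orm2, an orosomucoid acute-phase glycoprotein. Its log2 signal was 5.23, 5.93, 6.25 and 5.98 in wild type and 7.58, 7.39 and 6.70 in TLR4-/-, so all TLR4-/- arrays were above all wild-type arrays, by 1.38 on average (SE 0.24, limma adjusted p = 0.0970), a 2.60-fold difference. Without wild-type array C the adjusted p was 0.0237. After I/R the same gene differed by 0.36, and its groups overlapped. Orm1 and Orm2 are near-identical paralogs, and a probe set may read both. The other genes high on the ranking were dim: Zfp599 (a zinc-finger protein; 3.96 to 4.46 in wild type, 4.88 to 5.56 in TLR4-/-), 1700010I14Rik (4.50 to 4.81 against 4.99 to 5.62), Nog (the BMP antagonist noggin; 4.68 to 4.93 against 5.21 to 5.32) and the microRNA gene Mir200c (3.89 to 4.35 against 4.45 to 5.10). In 4 of the 15 the higher group mean lay within background, among them Mir18 and Olfr156. Zfp599 and 1700010I14Rik were on the opposite side after I/R, by -0.64 and -0.36.

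**Figure D2:**
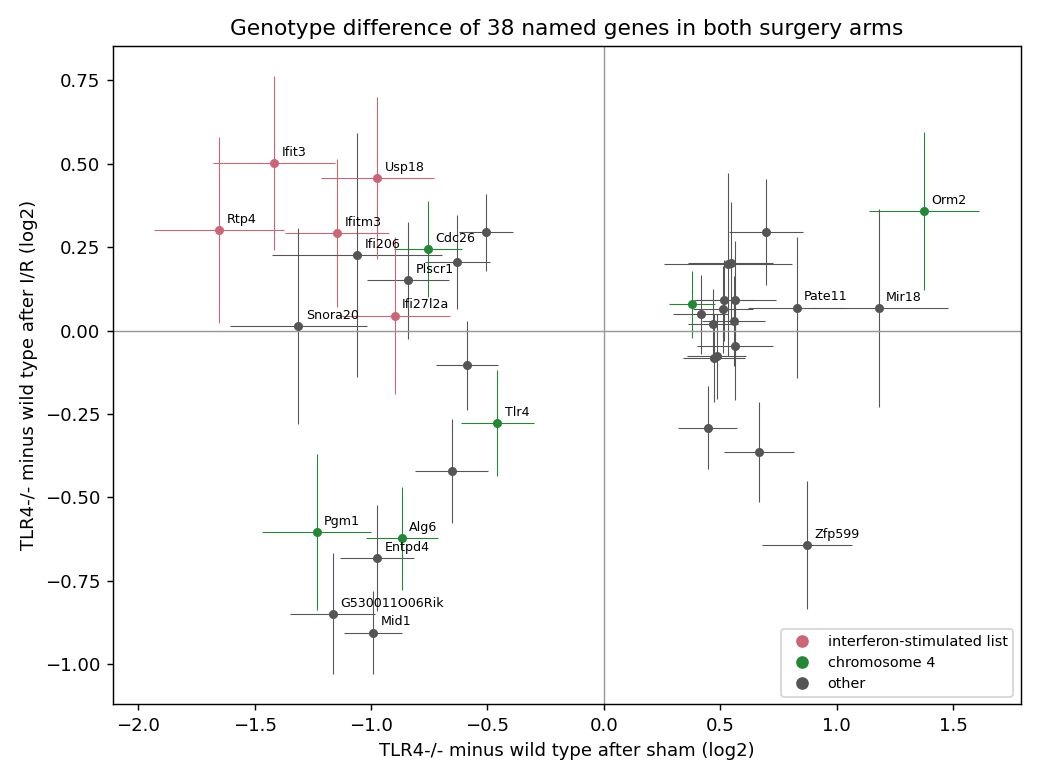
TLR4-/- minus wild type after sham (x axis, log2) and after I/R (y axis, log2) for Tlr4 and the 37 genes ranked by p or by size after sham; points are limma estimates, bars are ± SE, and colours mark members of the interferon-stimulated list and genes on chromosome 4. Mid1 and G530011O06Rik lie low on both axes, while Rtp4, Ifit3, Ifitm3 and Usp18 lie between -1.65 and -0.97 on the sham axis and above 0 on the I/R axis.

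Chromosome 4, which carries Tlr4, held 1154 (5.81%) of the genes tested and 5 of the 30 ranked by p: Orm2, Olfr156, Alg6, Pgm1 and Cdc26. At an unadjusted p under 0.001 it held 5 genes (0.433%, beside 0.131% of all genes with a chromosome; chromosome 19 held 0.444%), and at an unadjusted p under 0.05 it held 54 (4.68%, beside 5.24%). Orm2 lay at position -13 and Cdc26, a subunit of the anaphase-promoting complex, at position -30 in gene order from Tlr4, while Alg6 and Pgm1 lay at positions 96 and 99. Cdc26 gave 7.28, 7.06, 6.70 and 7.12 in wild type and 6.11, 6.43 and 6.30 in TLR4-/-, a difference of -0.76 (limma adjusted p = 0.170), and 0.24 after I/R. Without wild-type array C, its lowest wild-type value, the difference was -0.87 (limma adjusted p = 0.0215). Among the 25 genes on each side of Tlr4, limma called 0 of 50; at an unadjusted p under 0.05, 4 were higher and 0 lower, beside 2.87% and 2.37% of all genes. Without overlap, 5 were higher (Orm1, Orm2, Tnfsf15, Frmd3 and Zdhhc21) and 1 lower (Tnfsf8), beside 3.65% and 1.85% of all genes, and these 6 are named after their values were seen. Zdhhc21, a palmitoyltransferase, was at 6.48 to 6.65 in wild type and 6.68 to 7.47 in TLR4-/-, with a difference of 0.43 after sham and 0.55 after I/R, and its groups overlapped in neither arm. Orm1 was apart in both arms too, by 0.28 and 0.39. After I/R 7 of the 50 neighbours were higher and 2 lower at an unadjusted p under 0.05, beside 5.24% and 3.24% of all genes.

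**Figure D3:**
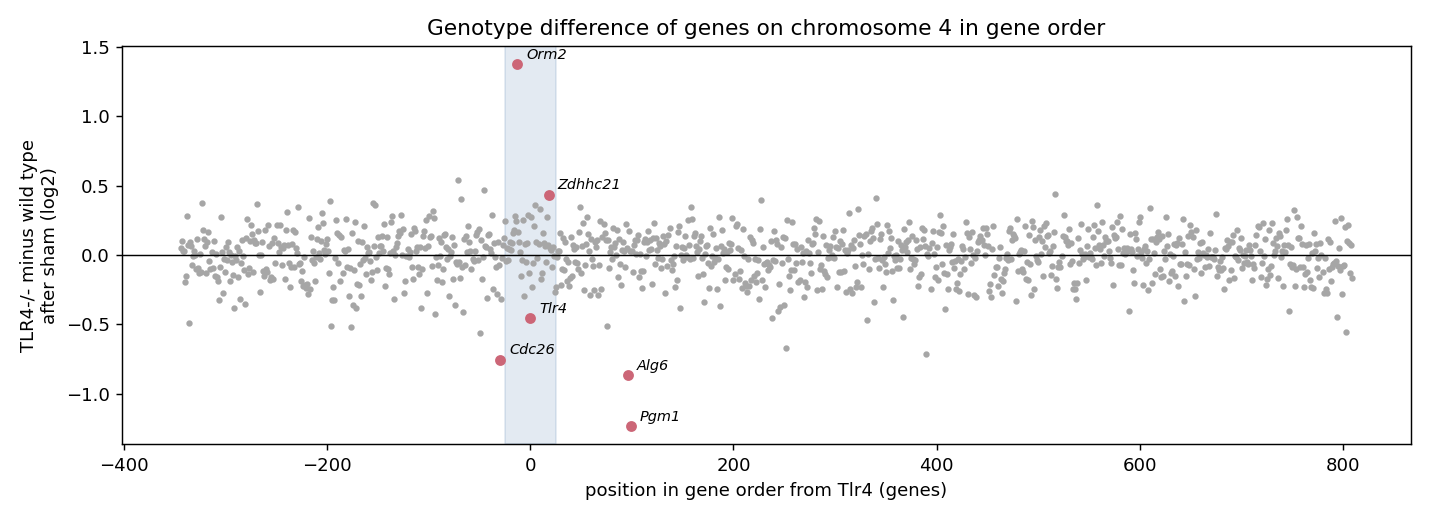
TLR4-/- minus wild type after sham (y axis, log2) of the 1154 genes tested on chromosome 4, in gene order counted from Tlr4 (x axis, genes); each point is a gene, the shaded band holds the 25 genes on each side of Tlr4 and coloured points are named. Orm2 stands at 1.38 inside the band, Cdc26 just outside it, and Alg6 and Pgm1 at -0.87 and -1.23 further along.

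Type I interferon-stimulated genes lay lower in TLR4-/- sham microglia as a list, although none passed alone. Of 68 genes on the list 59 were measured. By their mean over all 14 arrays, which includes the higher I/R values, 55 lay above background. The difference was negative in 50 and positive in 9, with a median of -0.34 beside 0.013 for all genes. Limma called 0 of the 59 after adjustment; at an unadjusted p under 0.05, 21 (35.6%) were lower and 0 higher, and 20 (33.9%) were lower without overlap while 2, Ifi44l and Cmpk2, were higher (both named after their values were seen). Of all genes 2.37% were lower by that p, 1.85% lower without overlap and 3.65% higher without overlap, so the 2 higher genes are near the share of all genes. The mean of the 59 genes was 6.70, 6.79, 6.60 and 6.72 in wild-type arrays A to D and 6.29, 6.24 and 6.39 in TLR4-/- arrays A, B and D. The array means did not overlap. Wild-type array C was the lowest wild-type array for 26 of the 59 genes and for 14 of the 20 that did not overlap. Leaving it out gave a median of -0.30 with 21 genes still at an unadjusted p under 0.05 and lower. In that setting 5.66% of all genes were lower by that p, more than the 2.37% of the reported fit. Leaving out TLR4-/- array B gave a median of -0.22, the smallest of all settings, with 17 list genes lower by that p. TLR4-/- array B was also the low array for the border-associated macrophage markers described below, with a list mean of 6.29 against 7.14 and 7.08 in TLR4-/- arrays A and D, and the part of those cells in this difference was not tested. The mean of 11 monocyte markers also moved with the list, at 4.84, 4.78, 4.78 and 4.89 in wild type and 4.74, 4.68 and 4.59 in TLR4-/-, all near background, and its part was not tested either. The list was assembled with earlier results of these data known, so its direction is a description.

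The interferon-stimulated genes furthest apart have assorted antiviral roles. Rtp4, an interferon-induced chaperone of G protein-coupled receptors, was at 8.08, 7.90, 7.02 and 7.84 in wild type and 6.55, 5.85 and 5.77 in TLR4-/-. It was lower in every TLR4-/- array, with a difference of -1.65 (SE 0.28, limma adjusted p = 0.0970), 3.14-fold, and passed without wild-type array C (0.0100). Ifit3, which works with the RNA-binding Ifit1, was at 7.43, 7.38, 6.95 and 6.35 against 5.20, 5.66 and 5.98. The difference was -1.42 (SE 0.26, limma adjusted p = 0.150), and it passed without wild-type array D (0.0296). Ifit3b is a near-identical copy, so the signal may hold both. Ifitm3, a membrane protein that blocks virus entry, was at 9.56, 9.40, 8.50 and 9.65 against 7.90, 8.07 and 8.43. Here wild-type array C lay just above the highest TLR4-/- array, the difference was -1.15 (limma adjusted p = 0.183), and without that array it was -1.41 (0.00279).

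Usp18, the protease that removes ISG15 and restrains interferon receptor signalling, was at 6.61, 6.31, 6.21 and 6.44 in wild type and 5.44, 5.63 and 5.19 in TLR4-/- (difference -0.97, limma adjusted p = 0.734). Ifi27l2a was at 6.03 to 6.89 against 5.55 to 5.91, a difference of -0.90 with the same adjusted p. Off the list, Plscr1, an interferon-induced phospholipid scramblase, was at 6.46, 6.22, 5.59 and 5.97 against 5.10, 5.14 and 5.43 (difference -0.84, limma adjusted p = 0.339; without wild-type array C -0.998 and 0.0215). Ifi206, a member of the Ifi200 family of DNA sensors, spread widely in wild type, from 3.97 to 5.51, and was at 3.35 to 3.82 in TLR4-/-. Its 2 lower wild-type arrays and all its TLR4-/- arrays lay within background. Irf7, the factor that amplifies interferon production and which is named after its values were seen, was at 5.16 to 5.54 against 4.38 to 5.05, a difference of -0.60. The lowest Irf7 value in TLR4-/- lay within background.

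**Figure D4:**
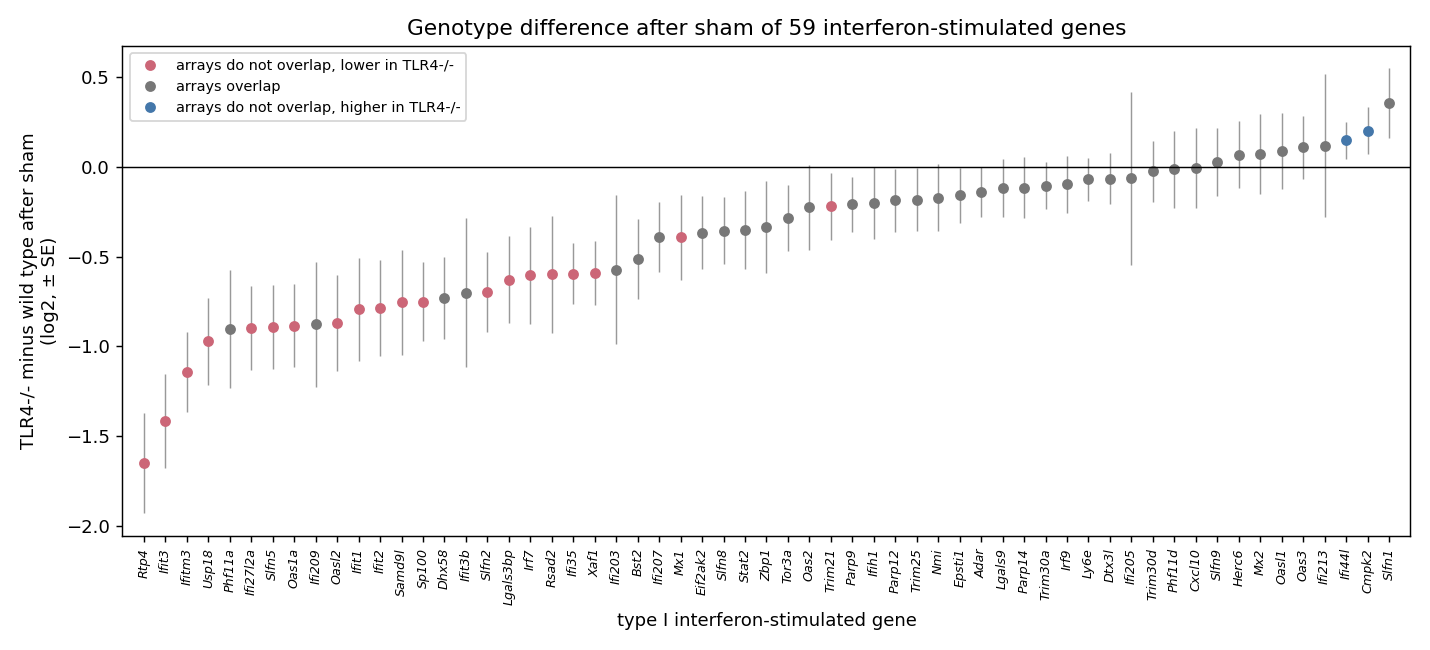
TLR4-/- minus wild type after sham (y axis, log2, ± SE) for each of the 59 measured type I interferon-stimulated genes (x axis, ordered by difference); colours mark genes whose arrays did not overlap between genotypes. The 20 genes without overlap in the lower direction run from Rtp4 at -1.65 upward, and 2 genes, Ifi44l and Cmpk2, lie higher without overlap.

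The promoters of these genes were read for the core of the interferon-stimulated response element, GAAANNGAAA, on both strands, in RefSeq promoter windows of 300 bases (250 before and 50 after the start, GRCm38.p6). Stretches of 3 interferon-stimulated genes that were lower without overlap are shown because they carry the match and belong to genes described here; Ifit1 and Oas1a were picked after their values were seen. Each is written 5′ to 3′ on the strand of the gene, and capitals mark every match or its reverse complement in the stretch; the Ifit1 stretch holds 2 and the Oas1a stretch 2 that overlap.
Ifit3, chr19:34583353-34583402, plus strand: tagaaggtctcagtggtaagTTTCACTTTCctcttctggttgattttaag
Ifit1, chr19:34640765-34640814, plus strand: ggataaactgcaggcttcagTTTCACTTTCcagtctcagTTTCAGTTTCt
Oas1a, chr5:120907526-120907565, minus strand: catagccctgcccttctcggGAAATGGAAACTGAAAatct

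A match was present in 24 of the 47 list members with a window (51.1%), beside 605 of 15563 genes tested (3.89%). It was no more frequent among the members that were lower without overlap: 7 of 16 (43.8%) held it, and 17 of the 31 other members (54.8%) did. A match is a description of the letters and shows no binding. In the sham arrays Ifit1, an RNA-binding antiviral protein, was at 4.98 to 5.62 in wild type and 4.25 to 4.71 in TLR4-/-, and Oas1a, an oligoadenylate synthetase, at 5.45 to 6.05 and 4.74 to 5.11. The lowest Ifit1 value in TLR4-/- lay within background.

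After I/R the interferon-stimulated genes no longer stood lower in TLR4-/- arrays. The list mean after I/R was 7.55, 8.11, 8.18 and 8.41 in wild-type arrays A to D and 8.17 to 8.35 in TLR4-/-. All lay above every sham array, and the genotypes overlapped. The median difference was 0.14, with 1 gene lower and 2 higher at an unadjusted p under 0.05, beside 3.24% and 5.24% of all genes. Wild-type I/R array A was the low one, and its part in the I/R values was not tested. Rtp4 was at 9.48 ± 0.52 (SD, n = 4) in wild type and 9.78 ± 0.24 (SD, n = 3) in TLR4-/-, and Ifit3 at 9.19 ± 0.45 and 9.70 ± 0.12. For the test of whether the genotype difference itself differed between surgeries, limma called 0 genes of 19938 after adjustment, with 398 (2%) more positive after I/R and 364 more negative at an unadjusted p under 0.05. Of the 59 list members 23 (39.0%) were more positive by that p. The change was 1.95 for Rtp4 and 1.92 for Ifit3, both at a limma adjusted p of 0.382, the smallest of any gene. This test uses the same sham arrays that ranked the genes, so it is no separate evidence for them. Limma called 4 genes (0.0201%) between genotypes after I/R: Mid1, Mns1, Phyhipl and Tnfsf4. Of these Mid1 alone was also apart without overlap after sham.

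In the TLR4 signalling list 23 genes were measured, with a median difference of -0.01. Tlr4 and its adaptor Ticam2 (7.82 to 8.17 in wild type, 7.50 to 7.91 in TLR4-/-) were lower at an unadjusted p under 0.05 (8.70% of the list, beside 2.37% of all genes) and none was higher. Myd88, the adaptor of the other branch, differed by -0.23, and Irak3, an inhibitor of the receptor complex, by 0.35 and without overlap. Of 15 interferons, receptors and inducing factors, Tyk2 alone was lower by that p (6.67% of the list). In that list 2, Ifna4 within background and the receptor chain Ifngr1 (named after its values were seen), were higher without overlap, beside 3.65% of all genes. Tyk2, a kinase of the interferon receptor, was at 6.02 to 6.31 in wild type and 5.44 to 5.85 in TLR4-/-, without overlap (difference -0.50, limma adjusted p = 0.920). The interferon-gamma-responsive list of 13 had a median of -0.07 and 1 lower gene, Gbp7 (a guanylate-binding protein; difference -0.48). Other Toll-like receptors (10 measured) had a median of -0.04 and none at that p.

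Inflammatory cytokines and NF-kB targets overlapped between genotypes. Limma called 0 of the 27 measured after adjustment and 0 at an unadjusted p under 0.05, and their median was -0.03. Il1b, the interleukin, was at 6.26 to 7.52 in wild type and 6.10 to 6.50 in TLR4-/-, and the groups overlapped. The 19 homeostatic microglia genes had a median of 0.02, from -0.06 to 0.27, with 0 at that p. The 22 disease-associated microglia genes had a median of 0.03 and 1 lower gene, Lgals1 (galectin-1; 6.86 to 7.87 against 6.38 to 7.03). Limma adjusted p was above 0.05 for every gene of both lists.

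Immediate-early and heat-shock genes, which respond within minutes to handling and stress, leaned the other way: 22 of 25 were positive, with a median of 0.14. Klf4 (5.50 to 6.22 in wild type, 6.19 to 6.59 in TLR4-/-) and Fosb (6.00 to 6.53 against 6.56 to 6.75), both transcription factors, were higher at an unadjusted p under 0.05, beside 2.87% of all genes. The list mean was 7.81, 7.94, 8.20 and 8.30 in wild-type arrays A to D and 8.09, 8.25 and 8.35 in TLR4-/-, so arrays A and B were low and the groups overlapped. Its part in the other differences was not tested.

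Border-associated macrophage markers and MHC class II genes were negative throughout, and in each list 1 array stood apart. All 10 border-associated macrophage markers, genes of the macrophages of the meninges and perivascular spaces, were negative, with a median of -0.44. Cbr2, a carbonyl reductase, was at 7.37, 7.73, 7.17 and 7.87 against 6.67, 6.61 and 6.64 without overlap, and F13a1, a coagulation factor subunit, was at 7.50 to 7.86 against 6.67 to 7.22. Both, and Clec10a, were lower at an unadjusted p under 0.05 (30% of the list, beside 2.37% of all genes). The list mean was 7.20, 7.08, 7.31 and 7.44 in wild type and 7.14, 6.29 and 7.08 in TLR4-/-; array B was the low one, and without it the median was -0.10. Fewer such cells and less RNA per cell cannot be told apart in these samples. All 5 MHC class II genes were negative, with a median of -0.53, and 0 reached that p. Their mean was 7.42, 7.34, 7.32 and 8.33 in wild type and 6.84, 7.54 and 7.12 in TLR4-/-, and without the high wild-type array D the median was -0.25.

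Proliferation genes were mixed. Of 24 DNA replication genes 4 (16.7%, beside 2.37% of all genes) were lower at an unadjusted p under 0.05 (Mcm6 and Gins1 of the replicative helicase, the clamp loader subunit Rfc4 and the primase subunit Prim2) and 1 higher (Pola1, the catalytic subunit of DNA polymerase alpha, named after its values were seen), with a median of -0.15. Mcm6 was at 6.39 to 6.82 against 5.92 to 6.34, without overlap. Of 25 mitosis genes 1 was lower (Prc1) and 1 higher (Ttk), near the 2.37% and 2.87% of all genes, and the median was -0.12. After I/R 16 of those 25 were lower at that p, beside 3.24% of all genes, with a median of -0.55. For Ttk, a spindle checkpoint kinase, the limma adjusted p for the change between surgeries was 0.382. Of 11 monocyte markers 9 were negative, with a median of -0.10, and their array means did not overlap, as given above. Plac8, the marker furthest apart, was at 4.02 to 5.34 against 3.71 to 4.16, and the groups overlapped. Fn1 was lower (4.62 to 5.23 against 4.35 to 4.49, around background) and F10 higher at an unadjusted p under 0.05. The Y-linked Kdm5d was at 7.91 to 8.26 in wild type and 7.53 to 7.94 in TLR4-/-, and Xist lay at 2.98 to 3.44 in all 7 arrays, which fits the male label.

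**Figure D5:**
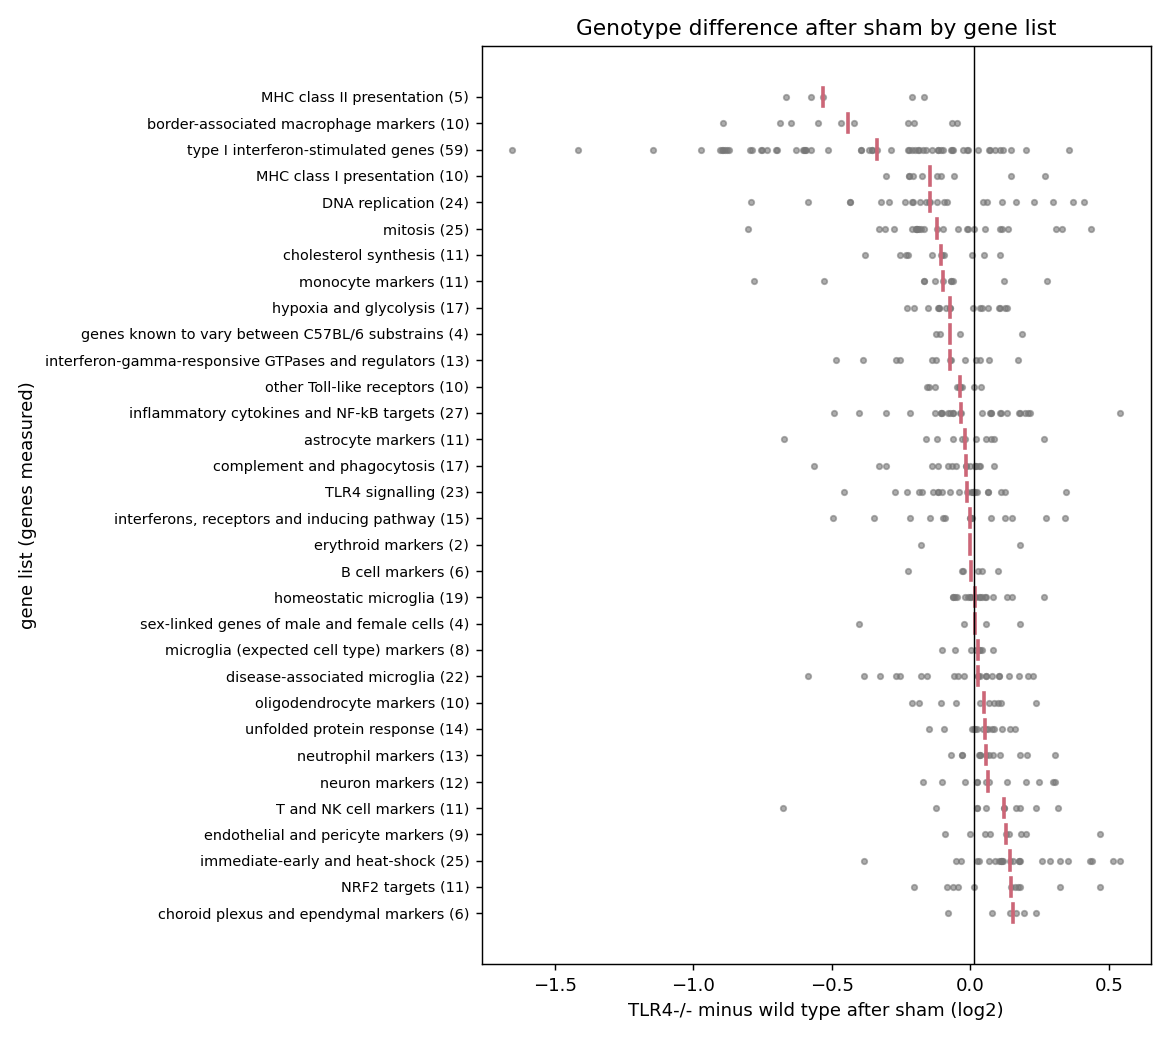
TLR4-/- minus wild type after sham (x axis, log2) for the measured members of 32 gene lists (y axis, with the number measured); grey points are genes, coloured bars are list medians and the vertical line is the median of all genes, 0.013. MHC class II genes, border-associated macrophage markers and type I interferon-stimulated genes have the lowest medians, -0.53, -0.44 and -0.34.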

How the data were processed

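RNA of sorted microglia was hybridised to Affymetrix Mouse Gene 1.0 ST arrays. The deposited values are log2 signals, made with RMA in the oligo package per the submitters' processing notes. The sources used here name no version, genome build or annotation. Of 35556 rows of the table, 21789 carried 1 gene symbol, 1621 several and 12146 none. Rows with 1 symbol were kept, with the highest-mean row per symbol (999 genes had more than 1), giving 19938 genes. limma 3.58.1 (R 4.3.3) was fitted to all 14 arrays with 4 group means, with Benjamini-Hochberg adjustment over all genes, and was checked on simulated data. RMA quantile-normalises the arrays, so a change shared by most genes cannot be seen. Precision is limited by the number of arrays.

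The members, gene lists and tests were chosen with earlier results of these data known. Named genes were Tlr4, the 15 lower and 15 higher with the smallest p, the 10 each way with the largest difference among non-overlapping genes above background, genes called by limma, and up to 4 members of each list with the smallest p; others are marked in the text. Gene names and order come from RefSeq (GRCm38.p6), whose coordinates are given for promoter sequences alone. Alternatives were the samples in the fit, a replicate block, variance model, array weights, centring, a filter on dim genes, the row per gene, leaving out each sham array and, added after seeing the data, all 35556 rows.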

Additional observations from a re-analysis of the deposited data

Results flagged for a closer look

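Of 70 groups of array values checked, 4 held an array far from the other 3 of its group, each a list mean in wild-type sham arrays. Chance flags about 1 in 20 groups (5%). Wild-type sham array C had the highest mean of the homeostatic microglia genes, 11.19 against 11.05 to 11.06, and the lowest of the hypoxia and glycolysis genes, 8.07 against 8.30 to 8.31. Wild-type sham array D had the highest mean of the MHC class II genes, 8.33 against 7.32 to 7.42. Wild-type sham array A had the highest mean of the T and NK cell markers, 4.66 against 4.44 to 4.47, a level around background.

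The genes ranked after sham were 15 each way by p and 10 each way by size, some in both. Of them 5 had arrays that did not overlap between genotypes in either surgery arm, in opposite directions. Of all genes 3.2% were lower without overlap after I/R, and how many turned direction without overlap was not counted. TLR4-/- minus wild type after I/R was -0.64 for Zfp599 and -0.36 for 1700010I14Rik, both higher after sham, and 0.29 for Ifitm3, 0.21 for Borcs7 and 0.29 for Tada2a, all 3 lower after sham. These genes were ranked on the sham arrays, and limma called none of the 5 for the change between surgeries.

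A row of the array without a gene name was lower in TLR4-/- sham arrays, at 5.97 to 6.17 against 6.91 to 7.14, a difference of -0.92 (SE 0.11, limma adjusted p = 0.0401 over all 35556 rows). After I/R it differed by -0.46 (limma adjusted p = 0.521). What this row measures is not known here.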

How the results depend on the processing

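The count of genes called after sham was 1 in the reported fit and 0 with only the sham arrays, where Mid1 had a limma adjusted p of 0.196. It was 2 with the title letter as a replicate block, 2 with trend and robust variance, 2 with array weights and 2 over all 35556 rows. Leaving out 1 array gave 0 to 10 calls, the 10 without wild-type sham array C: Ifitm3, G530011O06Rik, Mid1, Rtp4, Pgm1, Ndufa1, Smim20, Plscr1, Cdc26 and Orm2. Arrays of 1 letter did not deviate together (r = -0.10, 0.07 and 0.08), so the letters are not taken as pairs, and the block gave an interferon-list median of -0.33. Genes higher without overlap numbered 423 with arrays centred and 312 with dim genes left out, against 728, and 1129 to 1689 with 1 array left out, where fewer arrays overlap less; the lower ones numbered 586 to 1334. Centring turned the split of 369 lower and 728 higher into 543 and 423. The interferon-list median was -0.34 to -0.22 with 1 array left out. Of 2358 values of 168 named genes under the alternatives, 2340 kept their direction, 14 passed the threshold anew and 4, all of Mid1, lost it. The 18 that turned belong to 9 list genes near 0, none of which the text describes: Wdfy1 was 0.022 with the replicate block, 0.022 with array weights and -0.20 to 0.26 with 1 array left out, and Pax5 was -0.011 with arrays centred and -0.089 to 0.13. With 1 array left out Tlr2 ran from -0.12 to 0.077, Hsp90b1 from -0.010 to 0.13, Eif2s3y from -0.046 to 0.17, Uty from -0.11 to 0.075, Ighm from -0.012 to 0.19, Ms4a1 from -0.14 to 0.14 and Sox9 from -0.021 to 0.13.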
